A study of Mus musculus with 8 samples.

Results

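RNA was sequenced from J774A.1, a mouse macrophage cell line of tumour origin. The 4 control libraries came from cells given LPS (1 μg/mL), the bacterial cell wall component that activates macrophages through Toll-like receptor signaling. The other 4 came from cells given LPS (1 μg/mL) with the bile acid UDCA (1 mM), and all cells were collected at 24 h. All 8 libraries therefore carry LPS, none without it was analysed here, and every value compares levels under LPS in 1 cell line. Described here are 10 genes, chosen by symbol, of 55487 in the deposited table: Cd80, Cd86, Icosl, Cd274, Pdcd1lg2, Icam1, Cd83, Slamf7, Cd47 and Sirpa. Values are TPM, in which the reads of a gene are divided by its length and scaled within a library toward a sum of 1000000, so that levels of different genes can be set side by side. TPM keeps no read number, so the depth is unknown, and errors are SDs over the libraries of a group. The labels do not say whether the 4 libraries of a group are separate cultures, so p-values measure that spread only, which may be technical.

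Macrophages present antigen to T cells, and the outcome depends on a second set of signals from the surface of the presenting cell. CD80 and CD86 deliver the classical costimulatory signal through CD28 and are also bound by the inhibitory receptor CTLA-4, while ICOSL acts through ICOS. PD-L1 and PD-L2, the products of Cd274 and Pdcd1lg2, engage the inhibitory receptor PD-1. ICAM-1 holds the contact between the cells together by binding the integrin LFA-1, CD83 marks mature antigen-presenting cells, and SLAMF7 binds itself on neighbouring immune cells. CD47 is a "do not eat me" ligand found on most cells, and SIRPα is its inhibitory receptor on macrophages. LPS is known to raise several of these genes in macrophages.

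The members moved mostly one way. With UDCA, Cd274, Icam1, Icosl, Sirpa, Cd47, Cd80 and Cd83 were higher in every library than in any LPS library, and Cd86 alone was lower in every library. Slamf7 overlapped between the groups, and Pdcd1lg2 was near 0 throughout. Thus 7 members did not overlap upward and 1 downward, where 37.0% and 29.9% of the 11796 genes tested did and 66.8% in either direction. Genes were tested when their mean reached 1 TPM, which 9 of the 10 members did. Testing used limma (linear models that borrow variance across genes) on log2(TPM + 1), and p-values were adjusted by Benjamini-Hochberg over all genes tested. Calls needed a change of 2-fold or more as well as an FDR under 0.05, the thresholds of the study. The study reported more genes in both directions at these thresholds, and describes no filter or test for RNA sequencing in particular. A gene is said to have risen or fallen where its FDR was under 0.05. Cd274 was the 1 member called upregulated and Cd86 the 1 called downregulated, against 8.71% and 8.44% of all genes tested (17.1% in either direction). At an FDR under 0.05 without a fold minimum, 8 members were higher and 1 lower, where 40.2% and 32.3% of genes were (72.5% in either direction). At 1.5-fold with the same FDR, 5 members were higher and 1 lower, where 21.8% and 17.6% of genes were (39.4% in either direction). Folds in these counts are on log2(TPM + 1), which put Slamf7 at 1.46-fold and outside the 1.5-fold count. The ratio of the Slamf7 means in TPM was 1.56. The median log2 fold change of the 9 members was 0.62, and that of all genes tested was 0.08. The summed level of the 10 members ran from 448 to 486 TPM with LPS and from 714 to 768 TPM with LPS + UDCA.

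**Figure D1:**
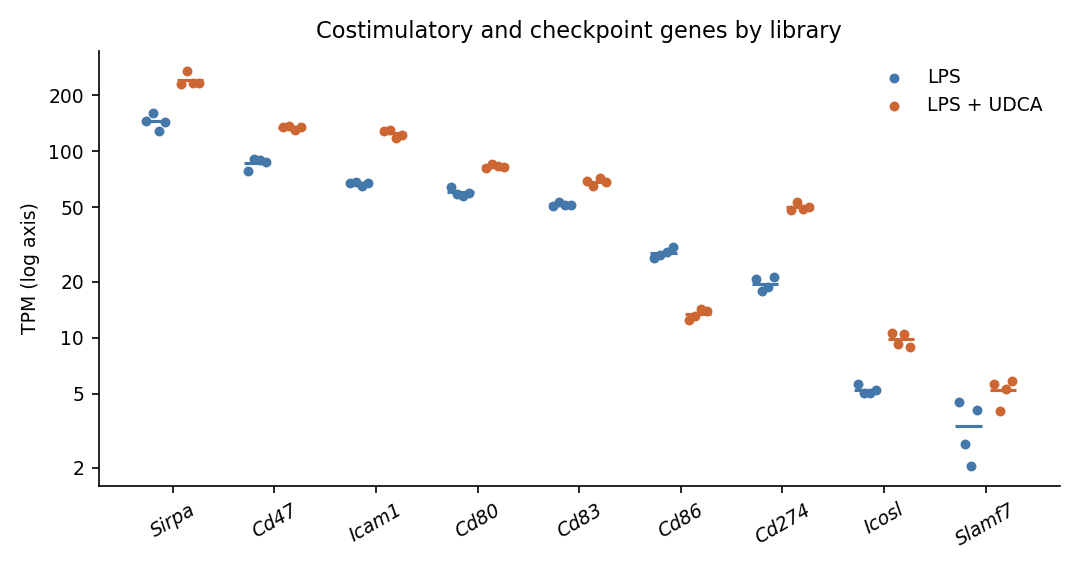
Level of 9 members in each library, in TPM on a log axis, ordered by their mean with LPS. Points are the 4 libraries of each group and bars their means, and Pdcd1lg2, at most 0.08 TPM, is left out. Only Cd86 lies lower with LPS + UDCA, and only Slamf7 overlaps between the groups.

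The cells carried macrophage transcripts, and of the markers of other lineages Lck and Cd79b alone had a mean of at least 1 TPM. Of 10 macrophage markers, 9 had a mean of at least 1 TPM, and Mertk was listed at 0 in every library. Their summed level was between 4240 and 4472.5 TPM with LPS and between 2081.2 and 2337.9 TPM with UDCA, and its part in the members' changes was not tested. In bulk RNA, fewer cells expressing a gene and less of its RNA per cell cannot be told apart. Dendritic cell markers, which matter here because such cells carry the same ligands, summed to 0.32 to 0.59 TPM with LPS and 0.29 to 0.53 TPM with UDCA. Of 6 T cell markers, Cd3e, Cd3g and Cd8a were listed at 0 in all libraries and the sum was 16.2 to 23.2 TPM with LPS and 8.96 to 10.2 TPM with UDCA, nearly all of it Lck. The 5 B cell markers summed to 3.1 to 4.5 and 0.35 to 1.6 TPM, mostly Cd79b. Fibroblast and epithelial markers each summed to at most 0.12 TPM, and endothelial markers to at most 1 TPM.

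The ligands of CD28 and CTLA-4 moved in opposite directions. Cd80 (chr16:38455561-38496335, GRCm38) had 64.55, 59.01, 57.58 and 59.9 TPM in LPS replicates 1 to 4. With LPS + UDCA it had 81.58, 85.2, 83.03 and 82.32 TPM. Cd80 was thus 1.38 times as high on average, and the groups were well apart. By limma this was a log2 fold change of 0.46 (SE 0.043, adjusted p = 1.1e-05), short of the fold minimum.

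Cd86 (chr16:36603869-36666081) is read from the other strand, 1789 kb away from Cd80 with 25 protein-coding genes between them. Its LPS libraries held 26.91, 27.6, 28.74 and 30.64 TPM, and its LPS + UDCA libraries 12.45, 13.08, 14.24 and 13.85 TPM. The level was 2.12-fold lower with UDCA, and every treated library lay below every control. On the log2(TPM + 1) scale limma gave -1.03 (SE 0.062, adjusted p = 6.1e-07), and 8.33% of genes tested had a lower value. Cd86 stood close to the fold minimum: without LPS replicate 4 its log2 fold change rounded to -1.0 but was no longer past it, with an adjusted p of 4.4e-06 from limma.

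The balance of the pair, computed within each library and so in need of no scaling between libraries, differed between the groups. The ratio of Cd86 to Cd80 ran from 0.417 to 0.512 with LPS and from 0.153 to 0.172 with LPS + UDCA. Cd86 made up 32.1% ± 1.97 (SD, n = 4) of the pair's transcripts with LPS and 13.9% ± 0.727 with UDCA. The log2 ratio differed by -1.55 (standard error 0.079), lower in 4 of 4 treated libraries. An exact 2-sided permutation test gave p = 0.029, the smallest that 4 against 4 libraries allow, and 0.058 after Benjamini-Hochberg adjustment over the 2 pairs with a value, which is above 0.05. The summed level of the pair moved little, from 88.7 ± 2.65 to 96.4 ± 1.82 TPM (exact permutation test, p = 0.029).

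**Figure D2:**
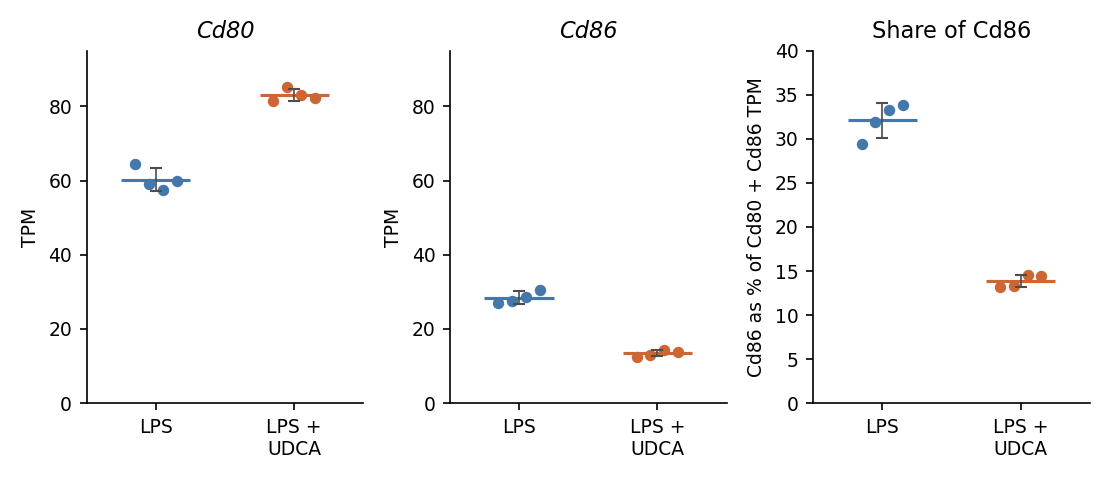
Cd80 and Cd86 in TPM and the share of Cd86 in their sum, in percent, for the 4 libraries of each group. Points are libraries, horizontal bars means and error bars SD. Cd80 is higher and Cd86 lower with LPS + UDCA, and the share of Cd86 goes from 32.1% to 13.9%.

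Icosl (chr10:78069302-78083913), the ligand of ICOS, was expressed at a low level and rose. LPS libraries had 5.61, 5.03, 5.03 and 5.21 TPM, and those with UDCA had 10.64, 9.19, 10.47 and 8.91 TPM. The ratio of the means was 1.88, and the groups did not overlap. The log2 fold change from limma was 0.79 (SE 0.078, adjusted p = 1.5e-05).

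Of the ligands of PD-1, the gene for PD-L1 was raised and that for PD-L2 was barely detected. Cd274 (chr19:29367455-29388095) had 20.52, 17.87, 18.6 and 21.05 TPM with LPS. With LPS + UDCA the values were 48.63, 53.43, 49.17 and 50.25 TPM. This was the widest rise among the members, 2.58-fold in TPM, and the groups were far apart. By limma the log2 fold change was 1.33 (SE 0.062, adjusted p = 1.4e-07), and 4.2% of genes tested had a higher one. An antisense gene, AC119228.1, overlaps Cd274, and 14.6% of the 31-base words of the Cd274 transcript also occur in another gene in either orientation. AC119228.1 itself was listed at 0.24 to 0.64 TPM with LPS and 1.8 to 3.16 TPM with UDCA, and reads from opposite strands may have been counted together.

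Pdcd1lg2 (chr19:29410919-29471161) starts 22.82 kb beyond the end of Cd274 on the same strand, with 0 annotated genes between them. It was listed at 0, 0.04, 0.08 and 0 TPM with LPS and at 0, 0.05, 0 and 0 TPM with LPS + UDCA. The values are at the resolution of a table kept to 2 decimals, so no change can be read from them (exact permutation test, p = 0.71). No ratio to Cd274 was formed, since 5 of the 8 values are 0. Their promoter windows, 250 bases before to 50 bases after the RefSeq start on GRCm38.p6, are shown because these neighbours differ so widely in level. The first is at chr19:29367188-29367487 and the second at chr19:29410669-29410968, both on the plus strand, and neither holds any of the motifs searched, so no base is in capitals.
Cd274: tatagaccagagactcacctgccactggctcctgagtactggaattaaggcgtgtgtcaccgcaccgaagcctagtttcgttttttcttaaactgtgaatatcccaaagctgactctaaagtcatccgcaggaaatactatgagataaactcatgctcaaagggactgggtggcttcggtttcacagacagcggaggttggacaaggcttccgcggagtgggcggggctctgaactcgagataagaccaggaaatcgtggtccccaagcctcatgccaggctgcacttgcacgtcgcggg
Pdcd1lg2: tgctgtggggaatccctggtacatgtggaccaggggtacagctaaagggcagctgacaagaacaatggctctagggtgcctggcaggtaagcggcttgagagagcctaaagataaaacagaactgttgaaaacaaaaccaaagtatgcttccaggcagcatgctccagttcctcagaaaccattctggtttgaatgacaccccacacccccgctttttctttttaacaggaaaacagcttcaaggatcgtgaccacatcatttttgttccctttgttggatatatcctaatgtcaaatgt
The Cd274 window held 15 CpG dinucleotides and had a GC content of 52.7%, and the Pdcd1lg2 window held 3 with a GC content of 46%, where the median of all 32851 promoter windows was 7 CpG and 52.7% GC.

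The adhesion ligand Icam1 (chr9:21015985-21028817) was among the most abundant members and rose by less than 2-fold. Replicates 1 to 4 had 67.65, 68.46, 65.51 and 67.27 TPM with LPS and 129.06, 130.74, 118.09 and 121.89 TPM with LPS + UDCA. The ratio of the means was 1.86, many times the spread within either group. In the limma fit the log2 fold change came to 0.88 (SE 0.042, adjusted p = 1.5e-07), short of the fold minimum. The antisense gene Gm47079 overlaps it and shares words with it (14.8% of the words of Icam1 occur in another gene), but was listed at 0.17 TPM or less in every library.

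The promoter windows of Icam1 and Cd80 are shown as examples that hold a match to a motif of an LPS-responsive factor. Any part of these matches in the rise of either gene was not tested. The motifs, searched on both strands, were a strict NF-κB motif (GGG, any 2 bases, TTTCC), a broader one that includes it (GGG, any 4 bases, TCC), TTCNNNGAA for STAT factors, GAAA repeated after any 2 bases for interferon regulatory factors, TGACNNNGC for NRF2, TGACGTCA for CREB and TGANTCA for AP-1. Of the 10 members, 7 matched the RefSeq promoter table by symbol. In the windows below, at chr9:21015690-21015989 and chr16:38458683-38458982 of GRCm38.p6 and on the plus strand, capitals mark the matches, and the RefSeq start of Cd80 lies inside the gene as GENCODE annotates it.
Icam1: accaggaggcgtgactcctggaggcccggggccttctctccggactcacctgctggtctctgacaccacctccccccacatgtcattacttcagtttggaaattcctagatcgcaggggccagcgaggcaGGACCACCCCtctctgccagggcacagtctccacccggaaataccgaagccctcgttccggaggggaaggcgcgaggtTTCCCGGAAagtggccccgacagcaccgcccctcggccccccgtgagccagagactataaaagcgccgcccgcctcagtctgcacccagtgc
Cd80: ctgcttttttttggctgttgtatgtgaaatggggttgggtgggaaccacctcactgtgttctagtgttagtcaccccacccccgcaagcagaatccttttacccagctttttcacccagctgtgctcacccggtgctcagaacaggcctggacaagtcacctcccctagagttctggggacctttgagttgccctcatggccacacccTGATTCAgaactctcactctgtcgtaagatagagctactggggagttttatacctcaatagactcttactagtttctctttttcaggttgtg
In Icam1, the broader NF-κB letters match on the reverse strand 120 to 111 bases before the start, and TTCCCGGAA matches the STAT letters 42 to 34 bases before it. In Cd80, TGATTCA matches the AP-1 letters 42 to 36 bases before the start. The broader NF-κB letters also occur in the window of Icosl, and the AP-1 letters in that of Slamf7. The broader NF-κB motif occurred in 2 of the 7 members with a window and in 19.2% of all windows, TTCNNNGAA in 1 and in 8.3%, and TGANTCA in 2 and in 7.81%. The strict NF-κB motif, that of the interferon regulatory factors, TGACNNNGC and TGACGTCA were in 0 of the 7 members and in 1.63%, 3.44%, 12.4% and 1.79% of all windows. Both NF-κB motifs require GGG, so forms of the site without it are not marked. A match is a run of letters and not a binding site that was measured.

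Cd83 (chr13:43784775-43803132), the maturation marker, rose least among the members without overlap. Its libraries had 50.94, 53.71, 51.49 and 51.33 TPM with LPS and 68.93, 64.85, 71.62 and 68.62 TPM with LPS + UDCA. The ratio of the means was 1.32, and the lowest treated library was above the highest control. From limma the log2 fold change was 0.39 (SE 0.042, adjusted p = 2.4e-05).

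Slamf7 (chr1:171632403-171653035) was the lowest of the tested members and the least certain. LPS replicates 1 to 4 had 4.51, 2.7, 2.05 and 4.1 TPM, and the LPS + UDCA replicates had 5.61, 4.06, 5.33 and 5.82 TPM. LPS replicates 1 and 4 were as high as the lowest treated library, and the coefficient of variation reached 34.7% with LPS, against at most 8.97% in any group of the other tested members. The log2 fold change in the limma fit was 0.55 (SE 0.19, adjusted p = 0.029), and the exact permutation test gave p = 0.086. The adjusted p from limma was above 0.05 when LPS replicate 2 (0.076), LPS replicate 3 (0.066), LPS + UDCA replicate 1 (0.071), LPS + UDCA replicate 3 (0.064) or LPS + UDCA replicate 4 (0.074) was left out.

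CD47 and its receptor rose together. Cd47 (chr16:49800533-49915010) had 78.75, 91.4, 89.59 and 87.78 TPM with LPS. The corresponding LPS + UDCA libraries had 134.36, 135.85, 129.57 and 134.83 TPM. The ratio of the means was 1.54, with no overlap, and limma gave a log2 fold change of 0.62 (SE 0.049, adjusted p = 3.8e-06).

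Sirpa (chr2:129592835-129632228) was the most abundant member in every library. Its LPS libraries had 145.25, 160.07, 129.11 and 143.72 TPM and its LPS + UDCA libraries 230.96, 271.25, 232.45 and 232.13 TPM. The ratio of the means was 1.67, and replicate 2 was the highest library in both groups. Limma gave a log2 fold change of 0.74 (SE 0.074, adjusted p = 1.6e-05), and 0.68 without LPS + UDCA replicate 2. Of its 31-base words, 0.0392% occur in another gene. Within a library, the ratio of Sirpa to Cd47 ran from 1.44 to 1.84 with LPS and from 1.72 to 2 with LPS + UDCA, which overlap. The difference of the log2 ratio was 0.12 (standard error 0.092), and the exact permutation test gave p = 0.29, 0.29 after adjustment over the 2 pairs.

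**Figure D3:**
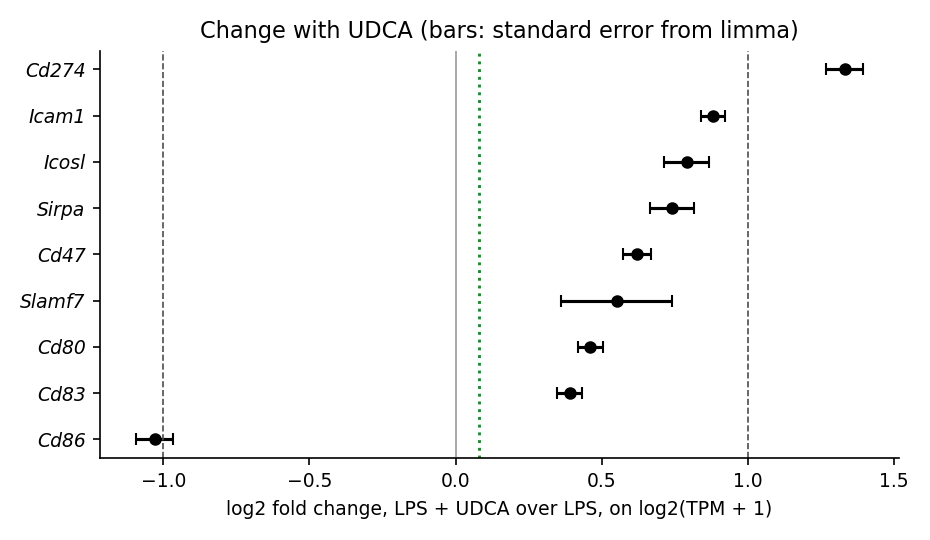
Log2 fold change of the 9 tested members, LPS + UDCA over LPS, on log2(TPM + 1), with standard errors from limma. Dashed lines mark a fold change of 2 in each direction and the dotted line the median of all genes tested, 0.08. Cd274 at 1.33 and Cd86 at -1.03 are the members past the dashed lines, and 7 others lie between 0.39 and 0.88.

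The order of the levels changed at 1 place. With LPS it ran from Sirpa (145 TPM) through Cd47 (86.9), Icam1 (67.2), Cd80 (60.3), Cd83 (51.9), Cd86 (28.5), Cd274 (19.5), Icosl (5.22) and Slamf7 (3.34) to Pdcd1lg2 (0.03), each an average over 4 libraries. No neighbours in that order overlapped between their libraries. With LPS + UDCA, Cd274 (50.4 TPM) stood above Cd86 (13.4 TPM), and the order was otherwise the same. Cd47 (134 TPM) and Icam1 (125 TPM) then overlapped, so their order is not beyond the spread. Of the summed level of the members, Cd86 held 6.1% with LPS and 1.84% with UDCA, Cd274 held 4.18% and 6.89%, and Sirpa held 30.9% and 33%.

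The binding partners of the members were described from a list of 13 genes, of which 6 were tested. At an FDR under 0.05, 1 was higher and 4 lower, and past both thresholds 0 were upregulated and 1 downregulated (median log2 fold change -0.57). Of all genes tested, 40.2% were higher and 32.3% lower at that FDR, and 8.71% and 8.44% were past both thresholds. Cd28 and Icos reached at most 0.01 and 0.1 TPM, and Ctla4 was listed at 0 in all libraries. PD-1 itself was detected: Pdcd1, named after its values were seen, had between 16.19 and 18.35 TPM with LPS and between 9.22 and 11.14 TPM with UDCA (a log2 difference of -0.70 by limma, adjusted p = 2.1e-05). The gene for its ligand PD-L1 moved the other way. LFA-1, the main receptor of ICAM-1, is made of the products of Itgal and Itgb2. Itgal fell from 25.6 ± 1.11 to 18.1 ± 2.02 TPM (log2 fold change -0.48, adjusted p = 0.00037 from limma), and Itgb2 rose from 92.4 ± 2.25 to 117 ± 6.86 TPM (0.34, adjusted p = 0.00014 from limma). Itgam, whose product pairs with that of Itgb2 in another ICAM-1 receptor, was the partner called, with 176 ± 11.3 and 22.7 ± 2.5 TPM (log2 fold change -2.91). Its level is uncertain, as Gm49368 overlaps it on the same strand and 68.3% of its 31-base words occur in another gene.

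Other ligands of costimulatory and inhibitory receptors on lymphocytes moved in both directions. Of 18 genes listed, 8 were tested, all of them with an FDR under 0.05, 4 higher and 4 lower (median log2 fold change -0.01). That FDR was passed by 72.5% of all genes tested. Past both thresholds, 3 were upregulated and 2 downregulated, where 8.71% and 8.44% of all genes tested were. Cd40, which receives the signal of CD40 ligand from T cells, rose most (log2 fold change 2.54, standard error 0.07), and Vsir, which encodes the inhibitory B7 family member VISTA, fell most. Vsir averaged 42.8 ± 2.48 TPM in the controls and 13.9 ± 1.27 TPM in the treated libraries (log2 fold change -1.56 by limma, adjusted p = 1.2e-07). The other genes called, named after their values were seen, were Pvr (19.8 ± 1.46 to 45 ± 0.899 TPM), Tnfrsf14 (0.815 ± 0.52 to 2.84 ± 0.631 TPM) and Lgals9, the gene for galectin-9 (47.4 ± 1.3 to 16.7 ± 2.57 TPM). Tnfrsf14 averaged under 1 TPM with LPS and was tested only because of its UDCA values, so its call is weak.

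Of 8 adhesion ligands, 7 were in the table and 3 were tested, with 0 higher and 2 lower at an FDR under 0.05 (median log2 fold change -0.37), and Icam2, another ligand of LFA-1, was the 1 called. It fell from 6.84 ± 0.644 to 0.635 ± 0.334 TPM (log2 fold change -2.28, adjusted p = 1.4e-06 from limma), in the opposite direction to Icam1. Both lower adhesion ligands averaged under 1 TPM with UDCA and were tested only because of their LPS values. The call of Icam2 is therefore weak, and its adjusted p-value is no separate support for a fall. Of 8 other SLAM family genes, 4 were tested and 0 called, with 2 higher at an FDR under 0.05 (median log2 fold change 0.17). For both lists, the shares of all genes tested at that FDR were 40.2% higher and 32.3% lower, and 17.1% were called.

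For the phagocytosis checkpoint, 9 of 14 listed genes were tested, with 2 higher and 6 lower at an FDR under 0.05 and 0 upregulated and 2 downregulated past both thresholds (median -0.58). At that FDR 40.2% of all genes tested were higher and 32.3% lower, and 8.71% and 8.44% were past both thresholds. The genes called were Lrp1, the receptor through which macrophages take up calreticulin-bearing cells, and Siglece, an inhibitory receptor for sialic acid. Lrp1 had 167 ± 13.4 and 52 ± 8.15 TPM (log2 fold change -1.67), and Siglece 5.13 ± 0.615 and 1.41 ± 0.188 TPM (-1.34). SIRPα signals through SHP-1, and its gene Ptpn6, named after its values were seen, averaged 296 ± 5.71 TPM in the controls and 198 ± 17.8 TPM in the treated libraries (log2 fold change -0.58 by limma, adjusted p = 1.7e-05). Ptpn11, the gene for the related phosphatase SHP-2, rose from 28.7 ± 1.35 to 35.1 ± 2.16 TPM (0.28, adjusted p = 0.0017 from limma). Calr, the gene for calreticulin, rose from 635 ± 17.4 to 1188.1 ± 42.7 TPM (0.90, adjusted p = 4e-08 from limma), and both were named after their values were seen. Qpctl, whose enzyme modifies CD47 so that SIRPα can bind it, had 17.5 ± 0.886 and 19.2 ± 1.99 TPM (adjusted p = 0.17 from limma).

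Among 8 regulators of PD-L1 and CD86 protein at the cell surface, 7 were tested, 2 were higher and 3 lower at an FDR under 0.05, and 0 were called (median 0.04). The shares over all genes tested were 40.2% higher and 32.3% lower at that FDR, with 17.1% called. Cmtm6, whose product keeps PD-L1 from being degraded, fell from 16.9 ± 0.754 to 12.2 ± 0.436 TPM (log2 fold change -0.44, adjusted p = 6.8e-05 from limma). Over the 6 lists together, 37 of 68 genes in the table were tested, 3 were upregulated and 6 downregulated past both thresholds, and the median log2 fold change was -0.23. Over all genes tested, 8.71% and 8.44% were called, and the median was 0.08.

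**Figure D4:**
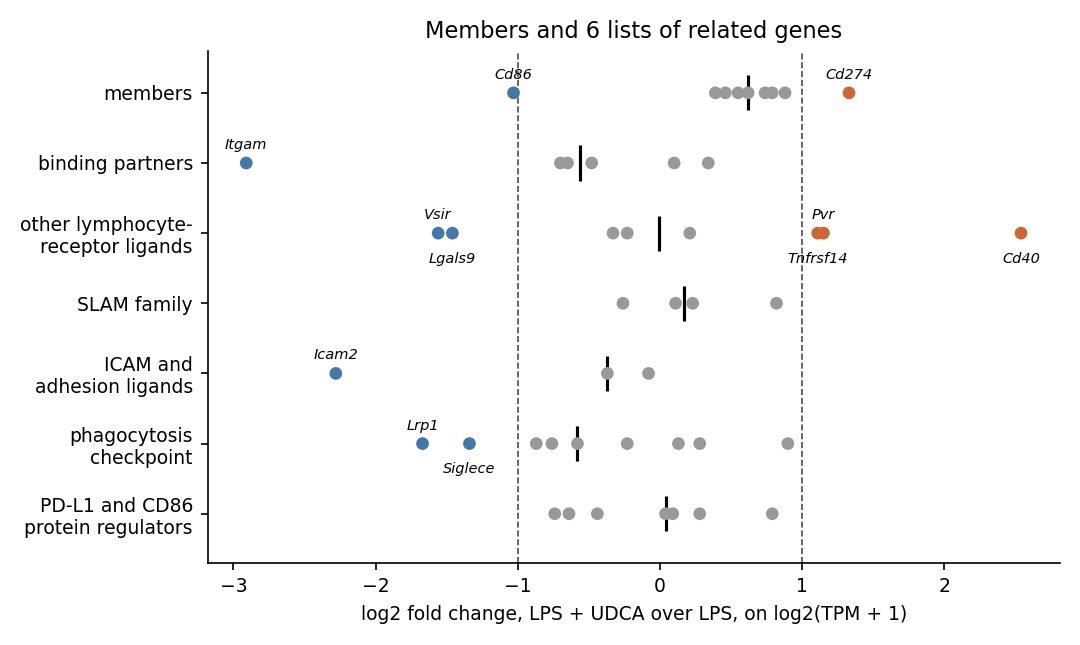
Log2 fold change, LPS + UDCA over LPS, on log2(TPM + 1), for the tested members and the tested genes of 6 related lists. Each point is a gene, colored where past both thresholds (orange upregulated, blue downregulated), black bars are medians and dashed lines a fold change of 2. The members have a median of 0.62, and the lists have medians between -0.58 and 0.17.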

How the data were processed

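Libraries were prepared with an Illumina TruSeq kit, per the labels. The authors deposited 1 table of TPM per gene with 8 library columns, kept to 2 decimals, and no read counts. The submitters' processing notes name Bowtie 0.12.2 and mm10/GRCm38; the counting program and its use of strand are not given in the sources used here. Groups came from the treatment label.

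The members and the lists of related genes were chosen with earlier results of these data known. The fit used limma 3.58.1 (R 4.3.3; lmFit, eBayes with trend) on log2(TPM + 1) for the 11796 genes whose mean reached 1 TPM, with Benjamini-Hochberg adjustment over all of them. Ratios of members and single genes were compared by exact 2-sided permutation tests over 70 arrangements (SciPy 1.17.1). In a simulation of this comparison over 11796 genes, 199 of 200 genes changed 4-fold and 0 of the others were called. The changed genes were drawn from the more abundant ones, and the noise was normal. The simulation therefore does not speak to changes near 2-fold, as for Cd86, or to low levels, as for Slamf7. Of 28 pairs of libraries, 0 were identical. Named genes were all members, the highest and lowest called gene of each list, and Cd40, Itgal, Itgb2, Cmtm6 and Qpctl. Other list genes (Cd28, Icos, Ctla4, Pdcd1, Pvr, Tnfrsf14, Lgals9, Ptpn6, Ptpn11, Calr) were named after their values were seen. Positions, overlaps and 31-base words are from GENCODE M21, and promoter windows from RefSeq on GRCm38.p6. Alternatives covered normalization, filters, pseudocounts, thresholds, the variance trend, a replicate block and leaving out each library.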

Additional observations from a re-analysis of the deposited data

Results flagged for a closer look

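Dixon's ratio, the distance of an extreme library from the nearest other over the whole range, was taken in 28 sets of 4 values. It passed the 95% critical value in 3, where chance gives 1.4 (about 1 in 20). In all 3 the high library was LPS + UDCA replicate 2. Sirpa had 271.25 TPM there (ratio 0.963), and the summed level of the 10 members was 767.7 TPM (ratio 0.846). Pdcd1lg2 was listed at 0.05 TPM in that library and at 0 in the other 3 (ratio 1), a difference at the resolution of the table. The 3 are not separate signs of an odd library. The sum includes Sirpa, and the ratio is always 1 where the other values are equal.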

How the results depend on the processing

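The log2 fold changes of the 9 tested members were recomputed under 17 alternatives each, and 0 of the 153 values changed sign. The call by fold and FDR together stayed as reported in 152, the exception being Cd86 without LPS replicate 4 (-1.0). Over all alternatives Cd274 lay between 1.25 and 1.37, Icam1 between 0.81 and 0.95, and Cd86 between -1.11 and -1.0. By FDR alone Slamf7 was lost in 6 of its 17 alternatives, those with a library left out that are given above and that with all genes above 0 TPM (adjusted p = 0.071 from limma). Scaling by median of ratios put the median log2 fold change of all genes at 0.010, against 0.082 as reported. Without a fold minimum 8 members were called higher, and with a minimum of 1.5-fold 5 were. The same thresholds gave 11 and 6 genes of the 6 lists higher and 19 and 12 lower. Over all genes tested they gave 40.2% and 21.8% higher and 32.3% and 17.6% lower. For the phagocytosis list, a pseudocount of 0.1 gave 4 genes lower and quantile normalization 1 higher, and a filter of 1 TPM in every library removed Icam2, leaving 0 adhesion ligands called. That filter also removed Tnfrsf14, leaving 2 of the other lymphocyte-receptor ligands called higher. With 1 library left out in turn, 1 member was called higher and 0 to 1 lower, 2 to 3 list genes were called higher and 6 lower, and the log2 ratio of Cd86 to Cd80 differed by -1.61 to -1.51 and that of Sirpa to Cd47 by 0.05 to 0.17. The groups share replicate numbers. The deviations of same-numbered libraries correlated by -0.0354 to 0.146 (mean 0.0877), and those of different-numbered libraries by -0.145 to 0.162 (mean -0.0292). The mean was higher for the same numbers, but the ranges overlap. With 4 same-numbered pairs this cannot decide whether the numbers pair the samples. The main fit used no pairing. With the replicate block, 1 member was called higher and 1 lower, as without it, and sign flips within same-numbered pairs gave p = 0.125 for Cd86 to Cd80 (exact test, the smallest that 4 pairs allow). TPM holds no depth, so counting error could not be given.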

Other observations

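Antisense genes at the PD-L1 and PD-L2 locus were among the genes that were higher with UDCA. Overlapping Cd274, AC119228.1 changed by 1.33 on the log2 scale (SE 0.18, adjusted p = 0.00012 by limma). A930007I19Rik, antisense to Pdcd1lg2, was listed at 0.26 to 0.76 TPM with LPS and 1.12 to 2.58 TPM with UDCA (a log2 change of 0.97, SE 0.19, adjusted p = 0.0013 by limma), while Pdcd1lg2 itself stayed at or below 0.08 TPM. Without a stated use of strand, reads of Cd274 and of AC119228.1 cannot be told apart where they overlap. These genes were chosen after their values were seen. Both antisense genes were under 1 TPM in every LPS library. They reached the mean of 1 TPM needed for testing only through the UDCA libraries. Their adjusted p-values are therefore no separate support for a rise.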
